A study of Drosophila melanogaster with 3 samples.

Results

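Peaks of tagged Schnurri (shn) that lie just upstream of the transcription start site (TSS) of a single gene are described. A reproducible peak was included when its summit, the position of highest signal, lay within 1 kb of TSSs of exactly 1 protein-coding gene and at or upstream of the nearest of those TSSs on the gene's strand. Of the 3586 reproducible peaks, 963 met this rule (26.9%, 95% Wilson interval 25.4 to 28.3), and they belonged to 849 of 13945 protein-coding genes. They are called upstream peaks. A further 362 single-gene promoter peaks had their summit downstream of the TSS, 1011 summits lay within 1 kb of TSSs of 2 or more genes (shared promoters), and 1250 lay more than 1 kb from any protein-coding TSS (distal).

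The samples were whole Drosophila melanogaster embryos of both sexes collected at 0 to 24 h. They came from a transgenic line that stably expresses shn fused at its C-terminus to GFP, and chromatin sonicated to 200 to 800 bp was precipitated with an antibody against GFP (ChIP-seq). There were 3 biological replicates of 1 group, so no condition was compared with another. The labels do not say how expression of the fusion protein is driven or whether the endogenous gene remains, and a whole-embryo sample pools all tissues and stages. The authors ranked 30000 regions per replicate, and the reproducible list holds those that passed their irreproducible discovery rate procedure on the pooled data. Signal is the authors' value per peak, read depth is unknown, and replicates are compared by rank or by ratios within a list. The top list of a replicate means its 3586 regions of highest signal, as many as the reproducible list holds. The reproducible list was itself drawn from these replicates, so presence in the top lists describes the peaks and is no separate evidence of binding.

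Schnurri is a large zinc finger protein. In the Drosophila embryo and wing disc it is known to join Mad and Medea, the Smads activated by Dpp (a BMP ligand), in a complex that silences brk, the gene of a repressor of Dpp targets. A promoter that serves a single gene in Drosophila may carry elements such as the DRE, bound by the factor DREF, Ohler motif 1, bound by M1BP, GAGA repeats, bound by GAGA factor, or a TATA box. The DRE, motif 1 and motif 7 are typical of broadly used housekeeping promoters.

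The 8 windows below show the letters found around these summits, each 101 bp long on dm6, centred on the summit and written on the strand of its gene. Capitals mark the elements described later: the hexamer ACAGTG (word A) or its reverse complement, the octamer CAACACTG (word B) or its reverse complement, the DRE TATCGATA, the motif 1 core GGTCACAC, motif 7, the GAGA repeat GAGAGAG or its complement, and the Brk site TGGCGCC. Lk6, RpL23A and Rnp4F hold word A, and RpL23A also holds word B. Rnp4F also holds the DRE and a motif 1 core that overlaps its word A. Regnase-1 holds motif 7 and a Brk site, and brk holds 2 GAGA repeats. CG14100, CG31145 and Atf3 are among the strongest peaks, and none of these elements lay within their printed windows. CG14100 holds word B within 100 bp of its summit, outside the printed letters.
Lk6, chr3R:11760993-11761093: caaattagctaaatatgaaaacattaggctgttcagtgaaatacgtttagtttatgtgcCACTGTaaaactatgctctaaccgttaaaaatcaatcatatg
RpL23A, chr3L:1668717-1668817: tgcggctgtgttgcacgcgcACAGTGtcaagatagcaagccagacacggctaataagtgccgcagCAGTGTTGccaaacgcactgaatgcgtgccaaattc
Rnp4F, chrX:5322697-5322797: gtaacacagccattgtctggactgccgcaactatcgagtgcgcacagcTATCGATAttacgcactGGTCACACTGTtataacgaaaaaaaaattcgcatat
Regnase-1, chr3R:20036094-20036194: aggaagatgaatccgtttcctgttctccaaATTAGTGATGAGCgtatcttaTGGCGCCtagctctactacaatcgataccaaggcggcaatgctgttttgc
brk, chrX:7307694-7307794: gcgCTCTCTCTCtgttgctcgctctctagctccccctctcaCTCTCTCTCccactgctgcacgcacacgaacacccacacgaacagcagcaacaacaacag
CG14100, chr3L:19590564-19590664: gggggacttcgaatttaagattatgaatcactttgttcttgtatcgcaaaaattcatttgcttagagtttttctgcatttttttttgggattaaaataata
CG31145, chr3R:23669792-23669892: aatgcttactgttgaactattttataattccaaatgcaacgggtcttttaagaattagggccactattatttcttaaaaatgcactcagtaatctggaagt
Atf3, chrX:1275452-1275552: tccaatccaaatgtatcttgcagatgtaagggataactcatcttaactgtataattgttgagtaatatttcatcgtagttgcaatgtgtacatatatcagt

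The strongest upstream peaks lay at genes of varied function. The highest signal, 2020, was at CG14100, with the summit 90 bp upstream of the TSS, and this region ranked 1 in each of the 3 replicates. Lk6, the gene of a kinase that phosphorylates the translation factor eIF4E, had its summit 964 bp upstream of an internal TSS, a signal of 1479 and ranks of 12, 4 and 5 in replicates 1, 2 and 3. The summit at px (plexus, which limits wing vein formation) was 179 bp upstream, with ranks of 25, 6 and 3. Sox14, an ecdysone-induced HMG-box factor, ranked 15, 10 and 9 with its summit 260 bp upstream. These 4 peaks stayed among the 25 strongest regions of every replicate.

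The next strongest peaks included several further genes of known function. Atf3, a bZIP factor, had its summit 218 bp upstream and ranked 9, 12 and 32. The Polycomb gene ph-p had its summit 474 bp upstream and ranked 14, 25 and 25, and its tandem copy ph-d had peaks 782 and 444 bp upstream at lower signals of 239 and 139. Rtnl1, which encodes a reticulon of the endoplasmic reticulum, ranked 19, 23 and 31 for the strongest of its 5 upstream peaks. The RNA-binding protein gene larp ranked 34, 20 and 23, and HmgZ, an HMG-box chromatin protein gene, ranked 11, 32 and 38. The other 11 of the 20 strongest were at CG1888, CG31145, MFS10, Smg5, gish, cbt, CG7737, brk, Hpf1, CG18549 and Msp300. Every one of the 20 was among the top regions of each replicate, and the lowest rank among them was 1731 in replicate 1, 86 in replicate 2 and 177 in replicate 3.

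**Figure D1:**
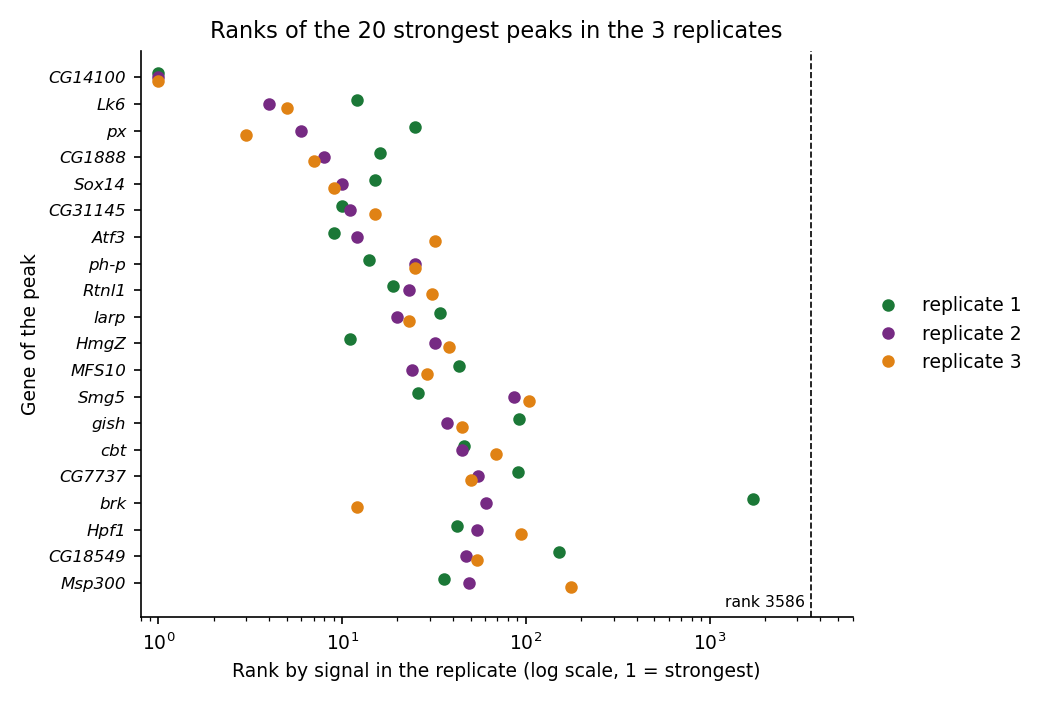
Rank by signal in replicates 1, 2 and 3 (points, log axis, 1 is the strongest region) of the 20 upstream peaks of highest pooled signal, one row per peak; the dashed line marks rank 3586, the end of the top lists. The points spread most at brk, whose replicate 1 rank of 1731 stands apart from 61 and 12. Smaller spreads are seen at other peaks, such as px (25, 6 and 3) and Msp300 (36, 49 and 177).

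The peak at brk, the known Schnurri target, was the least even of the 20. Its summit lay at position 7307744 of X, 195 bp upstream of the TSS, and the pooled signal was 699. It ranked 1731 in replicate 1, 61 in replicate 2 and 12 in replicate 3, so replicate 1 was low and the other replicates were high. A second brk peak, 894 bp upstream at position 7307045, had a pooled signal of 279 and the reverse order, with ranks of 208, 407 and 774. The GC content within 100 bp of the summit was 57.2% at the first and 40.3% at the second, against a median of 38.3% over the upstream peaks. The part of GC content in this order was not tested.

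The shn gene itself had 4 upstream peaks, at 3 of its TSSs. Their signals were 279, 263, 179 and 161. The peak 143 bp upstream of the TSS at position 11173803 of 2R had no match in replicate 1 and ranked 710 and 126 in replicates 2 and 3. The peaks 945 and 732 bp upstream of the TSS at 11198276 overlapped the same region of each replicate, with ranks of 752, 622 and 121. The fourth, 186 bp upstream of the TSS at 11204629, ranked 340, 1893 and 2187. The line carries a tagged shn, and binding cannot be told apart here from a copy number of shn DNA that differs from that of the control. CG7737, on the same arm at position 11222738, past the end of shn at 11217394, ranked 91, 55 and 50. The labels do not say whether the tagged copy extends this far, so the same limit may hold at CG7737.

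Summits were most frequent close to the TSS. The median distance was 195 bp upstream, with quartiles of 87.5 and 379.5 bp. There were 138 upstream peaks within 50 bp of the TSS, 139 at 51 to 100 bp, 220 at 101 to 200 bp, 306 at 201 to 500 bp and 160 at 501 to 1000 bp. Of the 1325 single-gene promoter peaks, 72.7% (Wilson 70.2 to 75.01) had their summit upstream. When the rule was applied to each replicate's own top list the share was 75.6%, 72.7% and 63.5%, a mean of 70.6% ± 6.30 (SD, n = 3). Replicate 3 was the low one, with 526 downstream summits against 288 in replicate 1 and 357 in replicate 2, while its upstream count of 917 lay between 894 and 949. The median distance in these lists was 232, 200 and 182 bp in replicates 1, 2 and 3.

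**Figure D2:**
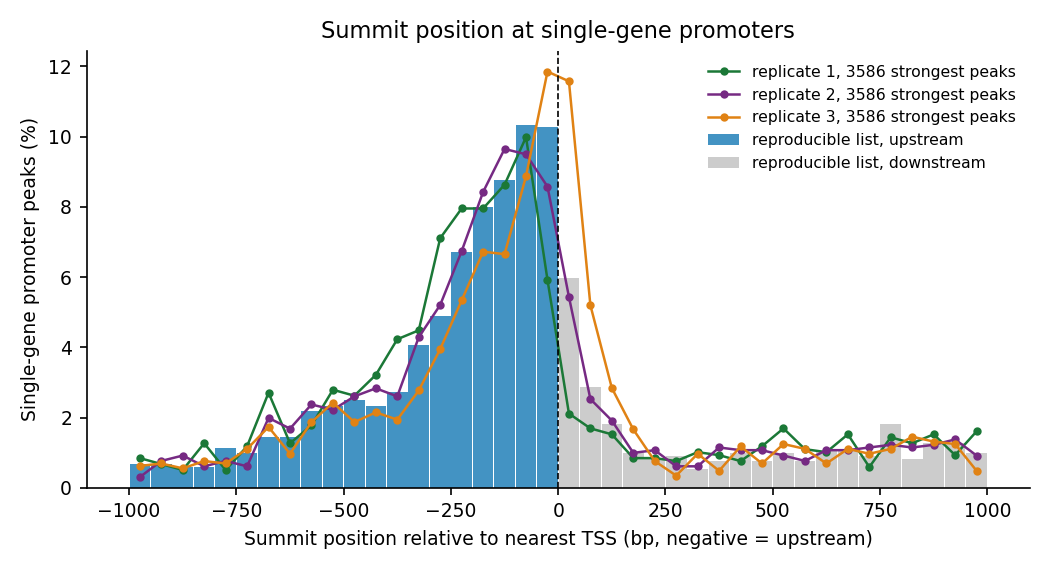
Position of summits relative to the nearest TSS (bp, upstream negative, 50 bp bins) at single-gene promoters, as a percent of all such peaks in each list; bars are the reproducible list and lines are the top lists of the 3 replicates. Upstream bars rise towards the TSS to 10.3% in each of the last 2 bins, and replicate 3 has more summits just downstream of the TSS than replicates 1 and 2.

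Replicate summits lay close to the pooled summit. The matched replicate summit was also at or upstream of the same TSS in 97.6%, 97.6% and 95.9% of cases, a mean of 97.1% ± 0.970 (SD, n = 3). The median displacement from the pooled summit was 19, 12 and 14 bp. The pooled summit was drawn from these same replicates and defined the class, so these values partly follow from the rule. Summits of 1 replicate were not compared with those of another. At the TSS edge of the rule, the summits of RpS29, isoQC and p24-1 lay on the TSS itself, with signals of 306, 233 and 126. The nearest summits on the other side were 1 bp downstream at CG32767 and 2 bp downstream at CG9399 and Sqor, with signals of 118, 383 and 343. At the 1 kb edge, RabGGTa, magu and CG9498 were inside at 1000, 993 and 981 bp with signals of 203, 219 and 188. The summits at sty, Tob and CBP were outside at 1007, 1009 and 1010 bp with signals of 175, 191 and 320. CBP also had an upstream peak 273 bp from its TSS, with a signal of 526.

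Presence in the replicate top lists varied with distance. Of the 963 upstream peaks, 567 (58.9%, Wilson 55.7 to 61.9) were in all 3 top lists, 258 in 2, 132 in 1 and 6 in none. The share in all 3 was 44.9% (36.9 to 53.3) within 50 bp of the TSS and 65.9% (59.4 to 71.9) at 101 to 200 bp. Replicate 1 held 55.1% of the peaks within 50 bp and 80.0% of those at 101 to 200 bp. Replicate 2 held 78.3% and 90.5%, and replicate 3 held 88.4% and 83.6%, so the order was reversed in replicate 3. Median GC content was 43.8% within 50 bp and 36.8% at 101 to 200 bp.

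**Figure D3:**
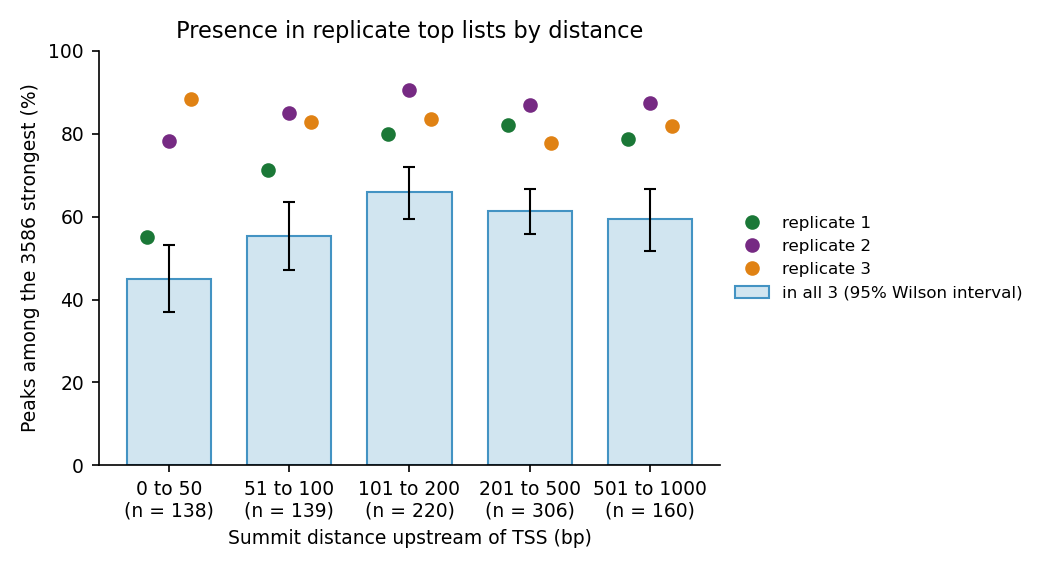
Share of upstream peaks found among the 3586 strongest regions of each replicate (points) and of all 3 (bars, with 95% Wilson intervals over peaks), by distance upstream of the TSS. The replicate 1 point lies lowest within 50 bp, at 55.1%, where replicate 3 lies highest, at 88.4%.

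Replicate 1 also lacked any overlapping region for 77 upstream peaks (7.996%), against 2 in replicate 2 and 3 in replicate 3. The 77 had a median GC content of 40.8%, against 37.8% in the 886 with a match. In 4 groups of rising GC content and about equal size, the share without a match in replicate 1 was 3.46%, 6.87%, 9.52% and 12.8%. Downstream peaks, with a median GC content of 42.3%, had no match in replicate 1 in 20.7% of cases. Among the 481 strongest upstream peaks, the 5 with the widest spread of ranks were at CG5541, 14-3-3zeta, rhea, p53 and RpL30, and in each the low rank was that of replicate 1. RpL30 ranked 12010, 329 and 231, and CG5541 ranked 19533, 1170 and 745. The cause of the difference between replicate 1 and the others was not tested. There were 83 upstream peaks (8.62%) that shared a replicate region with a neighbouring reproducible peak, and 57.3% of the other 880 were in all 3 top lists.

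Signal was slightly above that of downstream peaks in every replicate and close to that of shared promoters. The ratio of median signals, upstream over downstream, was 1.23, 1.19 and 1.05 in replicates 1, 2 and 3. The mean log2 ratio was 0.20 ± 0.12 (SD, n = 3). A two-sided exact sign-flip test over replicates gave p = 0.25, the lowest value that 3 replicates allow. Against shared promoters the log2 ratios were −0.15, −0.02 and 0.05, with a mean of −0.04 ± 0.10 (SD, n = 3; same exact test, p = 0.75). This difference was smaller than the spread between replicates and its sign turned to 0.014 without replicate 1. In 4 equal groups of the reproducible list, from the strongest to the weakest, upstream peaks made up 31.6%, 27.4%, 24.6% and 23.9%.

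Many of the TSSs lay inside genes. The summit fell outside every protein-coding gene in 533 cases (55.3%), inside the span of its own gene, upstream of an internal TSS, in 372 (38.6%), and inside another gene only in 58 (6.02%). A noncoding TSS was also within 1 kb of 134 summits. Median signal was 148 outside genes, 150 inside the own gene and 169 inside another gene, and 58.2%, 59.9% and 58.6% were in all 3 top lists. The log2 ratio of median signals inside the own gene over outside genes was 0.02, 0.11 and 0.12 in the 3 replicates, with a mean of 0.08 ± 0.06 (SD, n = 3; exact sign-flip test, p = 0.25).

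Genes with an upstream peak were longer and had more TSSs than genes at large. They had a median span of 6722 bp against 2166 bp for all protein-coding genes, and 56.9% had 2 or more TSSs against 26.5%. A gene with several TSSs has more positions at which a peak can qualify. An upstream peak was present at 3.57% of the genes with 1 TSS and at 13.1% of those with 2 or more. Counts per gene ranged from 1 upstream peak in 753 genes to 5 in Rtnl1, with 4 each in larp, shn and dnc, a cAMP phosphodiesterase gene. A distal peak inside the gene was found for 148 (17.4%) of the genes with an upstream peak and for 4.04% of all genes, and 70 also had a downstream peak.

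Upstream peaks were counted in lists of genes that were chosen with earlier results of these data known. For comparison, 6.09% of all protein-coding genes had an upstream peak and 21.1% had any reproducible summit within 1 kb of a TSS. Applying the rule to the 3 replicates' own top lists gave 5.80% ± 0.148 (SD, n = 3) of all genes. Among components of the BMP pathway, 7 of 24 genes had one (29.2%), each replicate's own list also gave 7 of 24, and 6 genes had one in all 3 lists. With only the most 5' TSS of each gene, the count was 2 of 24 against 4.41% of all genes. Of the 24 genes, 45.8% have 2 or more TSSs.

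Among the BMP genes, brk was followed by magu, whose secreted product modulates the spread of Dpp in the wing disc. The magu peaks were 228 bp upstream, with ranks of 265, 153 and 58, and 993 bp upstream, with ranks of 815, 901 and 848. The peak at sgg, the gene of the kinase GSK3, lay 262 bp upstream and ranked 205, 110 and 87. At Mad, the Smad that partners Schnurri, the summit lay 679 bp upstream of a TSS at position 3152753 of 2L, with ranks of 607, 358 and 113. The remaining 3 genes were shn, nej (the gene of a histone acetyltransferase) and dpp. Replicate 3 ranked the nearer magu peak, sgg and Mad higher than replicates 1 and 2 did. Among BMP-responsive and amnioserosa genes, 2 of 23 had an upstream peak (8.70%), near the 6.09% of all genes. They were ush and srp, which encode a Friend-of-GATA cofactor and a GATA factor.

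JNK signalling and dorsal closure genes had upstream peaks in 7 of 20 cases (35.0%), against 6.09% of all genes. In the own lists of replicates 1, 2 and 3 the counts were 4, 7 and 7 of 20. With the most 5' TSSs alone the count was 4 of 20, against 4.41% of all genes. Of the 20 genes, 60.0% have 2 or more TSSs, against 26.5% of all genes. The strongest was at cbt, a zinc finger factor gene, 422 bp upstream with ranks of 46, 45 and 69. The cbt summit also lies inside the span of ush. The myosin VI gene jar ranked 1541, 560 and 799, and pyd, a junction scaffold gene, ranked 865, 1231 and 1350. The JNK phosphatase gene puc had 2 summits, 470 and 271 bp upstream, that overlapped the same replicate regions, ranked 12225, 1382 and 513. Replicate 1 therefore placed puc outside its top list.

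In the EGFR and Ras pathway 6 of 25 genes (24.0%) had an upstream peak, against 6.09% of all genes. Of the 25 genes, 52.0% have 2 or more TSSs, against 26.5% of all genes. The ligand gene spi had its strongest summit 149 bp upstream with ranks of 61, 87 and 369. The ETS repressor gene aop followed with ranks of 530, 406 and 653, and the phosphatase gene csw ranked 2148, 3078 and 2562. The secreted inhibitor gene aos ranked 2358, 1678 and 5477. The genes pnt, an ETS activator, and edl, whose SAM-domain protein lacks an ETS DNA-binding domain, had signals of 100 and 114, near the low end of the list. The list of 9 genes made of ETS factors and edl had an upstream peak at 3, namely aop, edl and pnt.

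Notch pathway and E(spl) genes numbered 6 of 24, above the 6.09% of all genes. The corepressor gene gro had summits 100 and 30 bp upstream of its TSSs, with ranks of 72, 134 and 137 for the stronger. E(spl)m3-HLH had 2 neighbouring summits that overlapped the same replicate regions, ranked 420, 870 and 2848, and E(spl)m7-HLH ranked 2178, 2338 and 3396. The Notch inhibitor gene numb ranked 714, 1160 and 2313. The ubiquitin ligase genes mib1 and Nedd4 were each in 1 top list, that of replicate 3.

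Insulin and TOR genes also numbered 6 of 25 (24.0%), against 6.09% of all genes, and 6, 7 and 6 in the replicates' own lists. All 6 were among the 11 genes of the list with 2 or more TSSs, and none of the 14 genes with 1 TSS had one. After Lk6, the receptor gene InR had summits 651 and 84 bp upstream of different TSSs, ranked 880, 259 and 78, and 1522, 471 and 297. Pi3K21B, the regulatory subunit gene of PI3 kinase, had its summit 1 bp upstream and ranked 304, 267 and 247. REPTOR, a transcription factor controlled by TOR, ranked 516, 375 and 397. The hypoxia factor gene sima had a signal of 94.8, near the low end of the list, with ranks of 3436, 1569 and 9663. Of 19 bZIP factor genes, 5 (26.3%) had an upstream peak: Atf3, vri, CrebA, Atf-2 and CrebB.

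Ribosomal protein genes were counted as cytoplasmic and mitochondrial lists. Cytoplasmic ribosomal protein genes had upstream peaks in 17 of 85 cases, and 44 of the 85 (51.8%) had a peak at a shared promoter, against 13.7% of all protein-coding genes. The strongest were RpL23A with ranks of 253, 128 and 47, RpL22 with 1023, 210 and 103, RpS10b with 972, 260 and 295, and RpL24 with 1715, 331 and 206. Replicate 1 ranked each of these 4 lower than replicates 2 and 3 did. When noncoding genes also counted as neighbours, the count was 7 of 85. No upstream peak was found at 73 mitochondrial ribosomal protein genes, 40 proteasome genes or 21 nucleoporin genes, against 6.09% of all genes. The proteasome and nucleoporin lists are too small to tell a count of 0 from that share. With a 500 bp window the mitochondrial, proteasome and nucleoporin counts were 2, 1 and 1. At a shared promoter, 27, 8 and 9 of these genes had a peak. Of the cytoplasmic list 50.6% of genes have 2 or more TSSs, and of the mitochondrial list 8.22%, and the difference between these lists was not tested.

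The remaining lists were counted in the same way against the 6.09% of all genes. No upstream peak was found at 180 chemosensory receptor genes, 95 cuticle protein genes, 14 germline genes or 8 Hox genes, and the last pair of lists is too small to tell a count of 0 from that share. With only the most 5' TSS of each gene, 1 germline gene had one. The counts were 4 of 24 (16.7%) for the Wnt pathway (sgg, Wnt6, nkd and wg), 1 of 13 for Hedgehog (rdx), 1 of 9 for JAK/STAT (upd2) and 2 of 9 (22.2%) for FGF signalling (bnl and htl). Cell cycle genes had 5 of 27, or 18.5% (BubR1, Cdk4, polo, Cdk2 and fzr). The counts were 3 of 26 for Polycomb and trithorax genes (ph-p, ph-d and Psc), 3 of 21 for neural genes (elav, scrt and da), and 3 of 18 for mesoderm and heart genes (org-1, so and how). Of 87 respiratory chain genes, 4 had one (ND-B17, COX7AL2, ND-B22 and SdhD), and of 40 Mediator and TFIID genes 2 had one (Taf4 and MED4). A TSS with no TSS of another protein-coding gene within 1 kb was present in 62.9% of all genes. It was present in 42.4% of the cytoplasmic and 17.8% of the mitochondrial ribosomal protein genes. The share was 42.5% for proteasome, 14.3% for nucleoporin and 82.2% for chemosensory receptor genes. The part of this spacing in the counts was not tested.

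**Figure D4:**
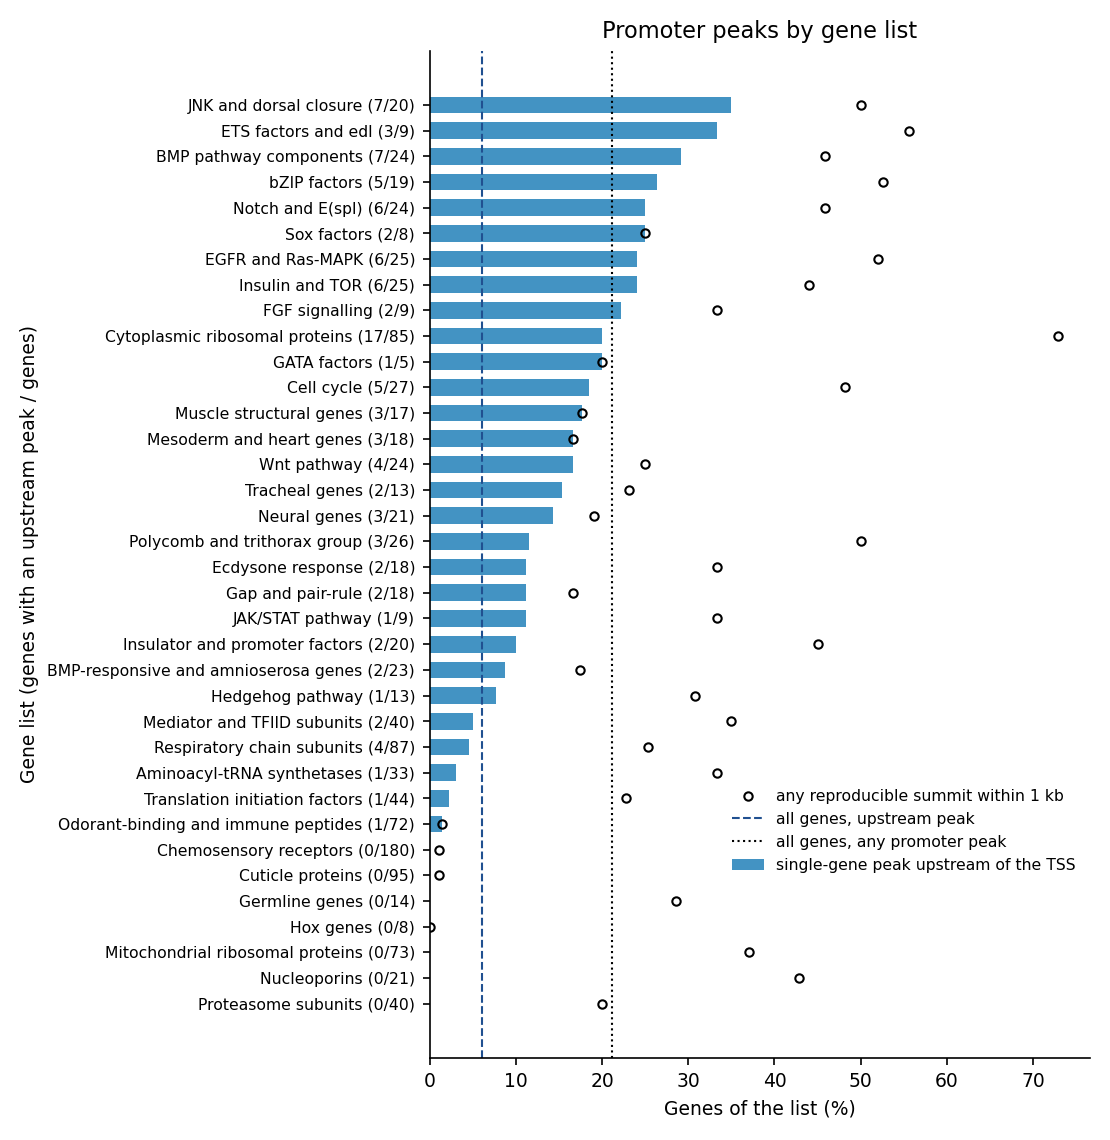
Percent of genes in each of 36 lists with an upstream single-gene peak (bars) or with any reproducible summit within 1 kb of a TSS (circles); counts of genes stand beside the names, and the dashed and dotted lines mark the 6.09% and 21.1% of all genes. JNK and dorsal closure genes have the longest bar, at 35.0%, and 7 lists have no bar.

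A hexamer, an octamer and several known promoter elements recurred within 100 bp of the summits. They were set against windows of the same 201 bp placed 195 bp upstream of the 15480 TSSs with no reproducible summit within 1 kb. Word A, the hexamer with the largest excess over these windows, was in 199 upstream peaks (20.7%, Wilson 18.2 to 23.3) and in 7.98% of the promoter windows. It was in 21.5% of downstream, 17.2% of shared and 22.7% of distal peaks. In the replicates' own lists its share among upstream peaks was 20.4% ± 0.591 (SD, n = 3). Word A was chosen on these windows, so its excess is a description with no test.

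Word A was spread evenly over distances from the TSS and was most frequent at the strongest peaks. It was in 22.0% of upstream peaks within 100 bp of the TSS, 18.6% at 101 to 200 bp, 19.6% at 201 to 500 bp and 23.1% at 501 to 1000 bp. Promoter windows placed at the median distance of each bin held it in 8.64%, 8.30%, 7.98% and 7.42%. In the 241 strongest upstream peaks it was in 25.7%, and in the next 3 groups of that size or 1 fewer in 19.5%, 19.5% and 17.9%. The strongest of 4 equal groups in the replicates' own lists gave 25.4% ± 0.207 (SD, n = 3). It was in 6 of the 20 strongest peaks, at Lk6, px, Rtnl1, larp, MFS10 and CG7737.

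Word A was also more frequent inside genes. It was in 25.3% of upstream peaks inside their own gene and in 16.9% of those outside genes. In the replicates' own lists the difference, inside minus outside, was 9.75, 5.21 and 8.92 percentage points, a mean of 7.96 ± 2.42 (SD, n = 3; exact sign-flip test, p = 0.25). The DRE went the other way, with 1.84% ± 0.619 inside and 6.96% ± 1.49 outside (SD, n = 3), a difference of −5.12 ± 1.45 points (same exact test, p = 0.25). Motif 7 was likewise in 4.24% ± 1.11 inside and 9.45% ± 0.827 outside.

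Word B and the housekeeping elements kept close to the TSS. Word B was in 57 upstream peaks (5.92%, Wilson 4.596 to 7.59), and 45 of these were within 100 bp of the TSS, where it was in 16.2% of peaks against 1.796% of promoter windows placed at that distance. Beyond 200 bp it was in 1.63% and 1.25%. Like word A, word B was chosen from words counted in these data, so its excess is a description with no test. The DRE was in 52 (5.40%), with 11.2% within 100 bp of the TSS against 5.98% of promoter windows at that distance, and 0.980% at 201 to 500 bp against 2.03%. Motif 7 was in 82 (8.52%), with 19.1% within 100 bp against 5.24%. The motif 1 core was in 32 (3.32%), with 9.75% within 100 bp against 5.24% and none beyond 500 bp. Over all distances, shared promoter peaks had higher shares, with word B in 8.01%, motif 7 in 18.8% and the motif 1 core in 5.64%. In the same order, downstream peaks had 3.04%, 4.42% and 4.14%, and distal peaks had 1.12%, 1.92% and 0.240%. Rnp4F, shown above with the DRE and the motif 1 core, has its summit 51 bp upstream, and RpL23A, which holds word B, has its summit 113 bp upstream.

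Upstream peaks lay between downstream peaks and shared promoters in their DRE content. In the replicates' own lists the DRE share of upstream minus downstream peaks was 3.57, 2.12 and 2.71 percentage points, a mean of 2.80 ± 0.730 (SD, n = 3; two-sided exact sign-flip test, p = 0.25). Upstream minus shared was −5.00, −5.94 and −6.62 points, a mean of −5.85 ± 0.815 (SD, n = 3; same exact test, p = 0.25). Both differences kept their sign in every replicate. The reproducible list gave 5.40% for upstream, 2.49% for downstream, 11.9% for shared and 0.400% for distal peaks. The BEAF-32 core CGATA, which lies within the DRE, was in 35.1%, 27.1%, 46.3% and 22.3%, against 26.5% of promoter windows.

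Word B and the DRE gathered at the summit, whereas GAGA repeats lay to its sides. Of the word B matches within 400 bp of upstream summits, 61.4% were within 100 bp, and for the DRE it was 57.4% and for word A 38.4%. An even spread would give 25.1%. GAGA repeats were in 8.20% of upstream windows against 5.19% of promoter windows. Downstream peaks were close to upstream peaks at 7.46%, with 4.16% in distal and 2.57% in shared promoter peaks. Of the GAGA matches within 400 bp of upstream summits, 19.7% lay within 100 bp. Overlapping matches in a long repeat count separately, with 139 matches within 100 bp and 79 upstream peaks that held any. GAGA repeats were in 5 of the 20 strongest peaks, at Lk6, px, gish, cbt and brk. Either word or the DRE was in 279 upstream peaks (29.0%), and 542 (56.3%) held none of the 7 elements.

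**Figure D5:**
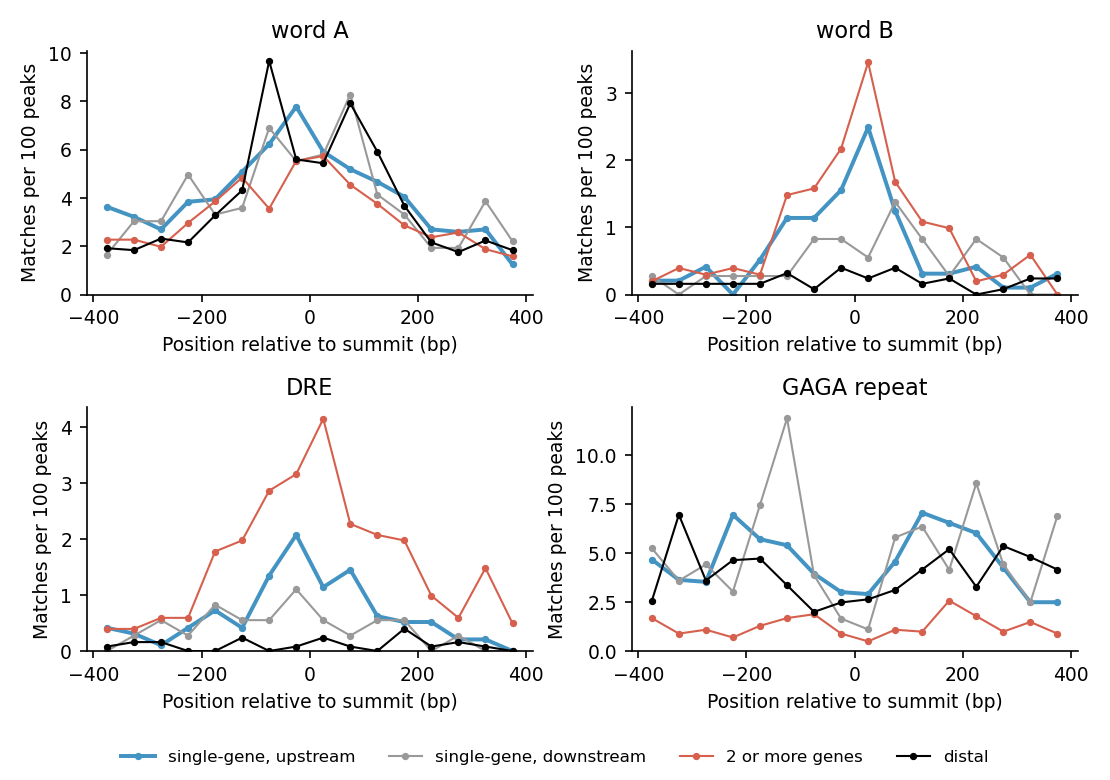
Matches to word A, word B, the DRE and the GAGA repeat per 100 peaks in 50 bp bins around the summit (bp along the reference strand), for upstream, downstream, shared-promoter and distal peaks. Word B and the DRE peak at the centre for upstream and shared promoters and stay near 0 for distal peaks. Word A is most frequent within 100 bp of the summit in all 4 classes. The GAGA repeat dips near the centre of upstream, downstream and distal peaks.

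Motifs of the BMP response were counted in the same windows. The silencer element of Mad, Medea and Schnurri was in 1 upstream peak (0.104%, Wilson 0.018 to 0.586) and in 0.0258% of promoter windows. The GC-rich Mad site GCCGNCGC was in 1.97% against 1.77%. The Brk site TGGCGCC was in 40 upstream peaks (4.15%, Wilson 3.07 to 5.61), against 1.94% of promoter windows, 1.66% of downstream, 2.37% of shared and 3.76% of distal peaks, with 3.91% ± 0.116 (SD, n = 3) in the replicates' own lists. Its strongest holders were Sox14, sp3 and Regnase-1. The TATA box TATAAA was in 25.5% against 31.7% of promoter windows, and the initiator core TCAGT in 33.3% against 29.6%. The promoter windows are centred 195 bp upstream and end short of the TSS, whereas windows of summits near the TSS reach it. The shares of TATAAA and TCAGT therefore do not compare TATA boxes or initiators at the TSS. A match gives the letters only, and says nothing of which factor was present.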

How the data were processed

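The authors deposited peak lists on dm6 for each of 3 replicates, for the pooled data and for reproducible peaks. Each deposited peak has a signal value, a −log10 q value and a summit. Peaks and background served as input to the authors' irreproducible discovery rate procedure, per the notes deposited with the lists. Which aligner, peak caller and threshold were used is not given in the sources used here, and the control the authors used was not analysed here. With no read counts, depth and the precision it gives are unknown. The dm3 lists were not used.

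Peaks were read in Python 3.11.15 with numpy 2.4.6 and pandas 2.3.3, and figures drawn with matplotlib 3.10.9. TSSs were those of all protein-coding transcripts in Ensembl release 115 (BDGP 6.54) on 6 arms, and sequence came from the RefSeq copy of the Release 6 assembly. A peak was matched to the replicate region of highest signal that overlapped it by at least 1 bp. Shares have 95% Wilson intervals, which cover counting error over peaks only, and replicate means have the SD. Differences over replicates used the two-sided exact sign-flip test. Motifs (24) and all 6- and 8-letter words were searched on both strands within 100 bp of the summit. Motif 7, motif 6 and the silencer element use degenerate letters and are given by name. Gene names came from the annotation, and 9 listed symbols were matched through RefSeq synonyms.

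Members, motifs and the 36 gene lists were chosen with earlier results of these data known. Genes named are those of the 20 strongest peaks, up to 6 genes per list or otherwise the 4 strongest, genes with 3 or more upstream peaks, the 3 peaks on each side of the thresholds, the 5 with the widest spread of ranks, and the 3 strongest holders of an element; other names were added after their values were seen, and a gene that this rule selects is not reported here. The classing, matching and motif search were tested on simulated data. Alternatives changed the TSS window to 500 bp or 2 kb, the TSS set, the gene biotypes, the signal minimum, the summit, the overlap (50%), the motif window (50 or 250 bp) and the replicates. The replicates are labelled as biological.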

Additional observations from a re-analysis of the deposited data

How the results depend on the processing

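The DRE differences and the signal ratio over downstream peaks kept their direction under every alternative run for them, including leaving out each replicate. Restricting the reproducible list to its stronger 50% by signal left 529 upstream peaks. The replicate lists they were matched to kept their length, and the top lists stayed at 3586 regions. Of these peaks, 88.7% were in all 3 top lists, which partly follows from picking peaks of high pooled signal. The share of replicate summits upstream was 98.5%, and the log2 ratio of signal over shared promoters turned to 0.011. That log2 ratio ranged from −0.086 to 0.014 when a replicate was left out. A 50% reciprocal overlap lowered the share in all 3 top lists to 44.4%, and with 2 replicates it ranged from 62.2% to 72.2%, which requires fewer lists. With only the most 5' TSS of each gene, the rule gave 643 upstream peaks, the upstream share in replicates was 62.9%, and the summits of CG1888 and Smg5 lay 959 and 127 bp downstream. Under that setting 13 of 36 list counts moved by more than 1.5 times, and 15 did so in the stronger 50%. The share of all genes with an upstream peak also fell, from 6.09% to 4.41% and 3.43% in these settings. No paired analysis was possible because the samples form 1 group and no replicate number pairs samples across groups. Differences between peak classes were taken within each replicate. With 3 replicates the sign-flip test cannot give a p below 0.25, and read depth is unknown.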

Other observations

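The remaining lists had upstream peaks at 1 to 3 genes each, and 6.09% of all protein-coding genes had one. Of 18 ecdysone response genes, 2 had one (Sox14 and E23), and 2 of 8 Sox genes did (Sox14 and Sox102F). The GATA list had 1 of 5 (srp), and the gap and pair-rule list 2 of 18 (bcd and hry). Tracheal genes had 2 of 13 (bs and bnl), muscle structural genes 3 of 17 (sls, TpnC47D and Tm1), and insulator and promoter factors 2 of 20 (row and JIL-1). Among translation initiation factors 1 of 44 had one (2.27%, eIF2A), and among aminoacyl-tRNA synthetases 1 of 33 (3.03%, beta-PheRS). Odorant-binding and immune peptide genes had 1 of 72 (1.39%, Obp99b). These shares were below 6.09%, and those of the lists named before them were above it. The lists hold few genes with a peak, and no share was tested against 6.09%. The sls peak, at the gene of the giant muscle protein, ranked 406, 443 and 631, and the elav peak, at a neuronal RNA-binding protein gene, ranked 194, 179 and 303.

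The shares of the other listed motifs are given first for upstream peaks and then for promoter windows without a peak, with no test. The E-box CAGCTG was in 11.4% and 8.67%, the E-box CACGTG in 2.70% and 2.18%, and the E-box CACCTG in 5.19% and 6.58%. The AP-1 site TGANTCA was in 5.19% and 4.46%, the GATA site AGATAAG in 3.22% and 3.17%, and the Su(H) core GTGGGAA in 2.28% and 2.65%. The ETS core CCGGAAG was in 1.04% and 0.866%, the Zelda site CAGGTAG in 0.935% and 1.29%, and the Sox core ACAATGG in 1.87% and 2.71%. The kB-like site GGGANTTTC was in 0.623% and 0.924%, the CRE palindrome TGACGTCA in 0.312% and 0.452%, the Smad box GTCTAGAC in 0.104% and 0.136%, and the repeat GCTGCTGCT in 0.415% and 1.07%. Motif 6 was in 0.208% and 0.646%. Among 8-letter words, CACTGTGC was in 6.13% of upstream peaks against 0.872% of promoter windows, and CACAGTGG in 5.82% against 0.840%. Both contain word A, and in distal peaks they were in 6.64% and 5.60%.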
